A study of Mus musculus with 2 samples.

Results

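The 10 genes described here encode the enzymes that take up superoxide and hydrogen peroxide, together with the inducible enzyme of haem breakdown: the peroxiredoxin genes Prdx1 to Prdx6, the catalase gene Cat, the superoxide dismutase genes Sod1 and Sod2, and the haem oxygenase gene Hmox1. They were chosen by name, and every non-control probe whose RefSeq accession maps to one of these symbols was used, which gave 16 probes for 10 of the 20614 genes with a named probe. The cells were bone marrow cells of a mouse B-cell acute lymphoblastic leukaemia, labelled as 8 weeks of age, and had been sorted by SoNar, a genetically encoded fluorescent sensor that follows the cytosolic balance of NADH and NAD+. Total RNA of the SoNar-high and of the SoNar-low population (1 µg each) was labelled with the dye Cy3 and read on 1 Agilent expression array per population. The sample titles call the same populations N-myc-high and N-myc-low. The strain, the genotype, the way the leukaemia was started and the number of animals are not given in the sources used here.

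Superoxide, which leaks from the respiratory chain and is made by oxidases, is turned into hydrogen peroxide by superoxide dismutases. Peroxiredoxins then reduce the peroxide with a reactive cysteine and are themselves reduced by thioredoxin, while catalase, a haem protein of peroxisomes, breaks it down with no reductant. Thioredoxin and glutathione are recharged with NADPH, a different cofactor from the NADH that SoNar reads. Haem oxygenase splits haem into biliverdin, iron and carbon monoxide, and its gene is a classic target of the stress-responsive factor NRF2.

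With 1 array per population there was no replicate of either population, no test between them was possible, and a gene was called by size alone, at a difference of at least 2-fold. Signals are intensity units of the scanner software. Differences are SoNar-high minus SoNar-low of the log2 signal after each array was divided by its 75th percentile (409 units for SoNar-high, 470.2 units for SoNar-low), so 1 on this scale is 2-fold. Each comes with the error that the scanner software attaches to the spots, which covers the spots and not cells, animals or sorts. The SoNar-high array was the dimmer one at low signal, with 44.8% of its spots well above background against 72.9%. The arrays were scanned at separate times, which cannot be told apart from the populations. Of 10 B-lineage markers 9 were well above background on both arrays, and Igll1, which encodes a surrogate light chain of the pre-B-cell receptor, was on neither.

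All 10 genes were measured on both arrays, and 15 of their 16 probes were well above background on both. Prdx4 was at least 2-fold higher in the SoNar-high population, Cat and Hmox1 were at least 2-fold lower, and the other 7 genes stayed within 2-fold. Across all 10515 measured genes 6.79% passed 2-fold, 2.41% higher and 4.38% lower. The 10 genes had a median of 0.21, next to the median of 0.22 of all measured genes, with 5 above and 5 below that median gene. Their interquartile range was 0.76, against 0.67 over all measured genes.

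**Figure D1:**
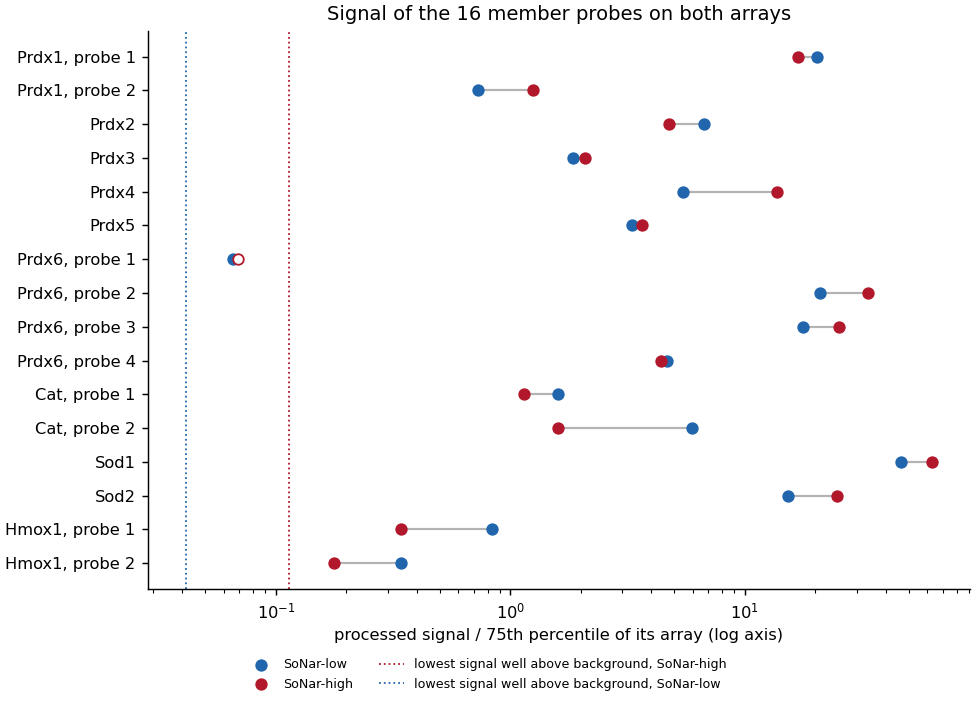
Processed signal of each of the 16 probes divided by the 75th percentile of its array (log axis), for the SoNar-high (red) and the SoNar-low array (blue), 1 array each. An open point is not well above background, and the dotted lines mark the lowest signal well above background, at 0.113 and 0.0413 on this scale. Prdx4 and probe 2 of Cat have the widest gaps, in opposite directions, and the dim Prdx6 probe lies under the SoNar-high limit.

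Prdx4, the peroxiredoxin of the endoplasmic reticulum, which passes oxidising equivalents to protein disulfide isomerases, had a signal of 5605 units for SoNar-high against 2559 units for SoNar-low. Genes of this brightness were on the whole higher for SoNar-high too, by 0.36 along the trend of the difference over level. The difference was 1.33 (software error 0.20), a 2.52-fold difference, and 55 of the 10515 measured genes lay higher. The call rests on 1 probe of 1 spot per array. It was lost when differences were taken from the trend over level, at 0.97. In bulk RNA such as this, a different share of cells that express a gene and a different level per cell cannot be told apart.

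The cytosolic peroxiredoxins did not move together. Prdx1, an abundant enzyme of cytosol and nucleus, gave 6926 and 9570.0 units by its brighter probe, a difference of -0.26 (error 0.20), and 511 and 342 units by the other, a difference of 0.78 (error 0.21). These probes pointed in opposite directions, so the gene's mean of 0.26 has a spread of 0.74 (SD of 2 probes), and it was negative under 3 of 11 other settings. Prdx2, the peroxiredoxin that red blood cells hold in bulk, gave 1952 units for SoNar-high against 3146 units for SoNar-low. Its difference was -0.49 (error 0.20), with 12.3% of all measured genes lower. By gene means Prdx2 was thus the lowest of the peroxiredoxins, 0.63 below the next, Prdx5, and the only one of them below 0. The Prdx2 value rests on 1 probe of 1 spot per array. Single probes of Prdx1 (-0.26) and Prdx6 (-0.09) were below 0 too. Under median scaling, which moved the median gene from 0.22 to 0.79, Prdx2 stood at 0.08.

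Prdx6, which works with a single reactive cysteine and glutathione and also has phospholipase activity, was read by 4 probes. The brightest gave 13725 units for SoNar-high against 9858 for SoNar-low, a difference of 0.68. The next 2 gave differences of 0.50 and -0.09. The remaining probe, at 28.3 and 30.8 units, was under the background limit for SoNar-high and stayed out of the gene's mean of 0.36 (SD 0.40 over 3 probes). A close paralog, Prdx6b, was under the background limit on both arrays. The gene table lists 4 pseudogenes of Prdx1, Prdx2 and Prdx6, none of which has a named probe here. Probe sequences were not used, so whether these copies share signal with the Prdx1, Prdx2 and Prdx6 probes was not tested.

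Prdx3 and Prdx5, which remove peroxide in mitochondria (Prdx5 in other compartments too), lay close to the median gene. The Prdx3 probe was printed as 10 spots, which makes it the best measured of the 16. Its SoNar-high spots ran from 769 units through a median of 847 to 948, and its SoNar-low spots from 798 through 874 to 933. Before scaling, the SoNar-low spots lay within the range of the SoNar-high spots. After scaling, the difference was 0.16 ± 0.11 (SD, n = 10 spots of 1 array each), with each of the 10 positions above 0. The observed spread of the spots, 6.89% and 4.39% of the mean, was under the 10.1% and 10.01% that the scanner software assigns. Prdx5 gave 1491 and 1550 units and a difference of 0.15 (error 0.20). The signs of both depend on the scaling: Prdx3 was negative under 3 and Prdx5 under 5 of 11 other settings.

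Both superoxide dismutase genes were above the median gene. Sod1, the copper and zinc enzyme of the cytosol, gave 25772 units for SoNar-high against 21707 for SoNar-low, a difference of 0.45 (error 0.20). Sod2, the manganese enzyme of the mitochondrial matrix, gave 10124 and 7161 units, a difference of 0.70 (error 0.20) and 1361 measured genes higher. Each of these genes was read by 1 probe of 1 spot per array, so the spread between probes is not known for them.

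Cat was the lowest of the 10 genes, and both its probes were lower on the SoNar-high array. The first gave 467 and 754 units, a difference of -0.49 (error 0.21). The second gave 653 units for SoNar-high against 2804 for SoNar-low, a difference of -1.90 (error 0.21). The probes shared their direction but differed by far more than their error, so the mean of -1.19, a 2.29-fold difference, has a spread of 1.00 (SD of 2 probes). The median spread between probes of 1 gene was 0.32 over 2392 genes. Only the second probe was past 2-fold, and under median scaling Cat stood at -0.63.

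Hmox1 was the dimmest of the called genes. Its first probe gave 140.0 units for SoNar-high against 393 for SoNar-low, a difference of -1.29 (error 0.24). The second gave 72.4 and 160.1 units, a difference of -0.94 (error 0.31). The gene's mean was -1.11, a 2.17-fold difference, with a spread of 0.24 (SD of 2 probes). On the SoNar-high array the probes were 3.02 and 1.56 times as bright as the lowest signal well above background there. The call was lost with normexp background correction (-0.64), median scaling (-0.55), quantile normalization (-0.86) and in the authors' series matrix (-0.88).

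Most of the measured markers of 2 other marrow cell types were below 0 as well, 4 of 5 erythroid and 4 of 6 macrophage and monocyte markers. Of all measured genes 66.9% were above 0. This was not particular to these 2 types: 10 of 12 neutrophil, 5 of 6 T and NK and 4 of 4 stroma and endothelium markers were below 0 too. Lung markers were split, 2 of 4, and of B-lineage and brain markers 2 of 9 and 1 of 10 were below 0. Red blood cells are rich in Prdx2 and catalase. Of 15 erythroid markers with a probe 5 were measured, with a median of -0.42, from Hemgn (0.89) to Hba-a1 (-1.82), while 8 more, Alas2, Slc4a1 and Klf1 among them, passed the background limit for SoNar-low alone and 2 for neither. Their summed signal was 59.4 times the 75th percentile for SoNar-high and 36.7 times for SoNar-low, of which Hemgn gave 55.7 and 30.1, and the rest summed to 3.66 and 6.59. Macrophages that recycle red cells express Hmox1. Of 14 macrophage and monocyte markers with a probe 6 were measured, with a median of -0.60, from Ly86 (0.70) to Csf1r (-1.19), while 6 more, C1qa and Vcam1 among them, passed the limit for SoNar-low alone and 2, Cd163 and Spic, for neither. Since the limit was higher on the SoNar-high array, passing it on the other alone does not show a lower level. They summed to 13.3 and 10.3, and without Ly86, which gave 11.3 and 6.99, to 2.02 for SoNar-high and 3.26 for SoNar-low. The part of either cell type in the values of Cat, Prdx2 and Hmox1 was not tested.

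**Figure D2:**
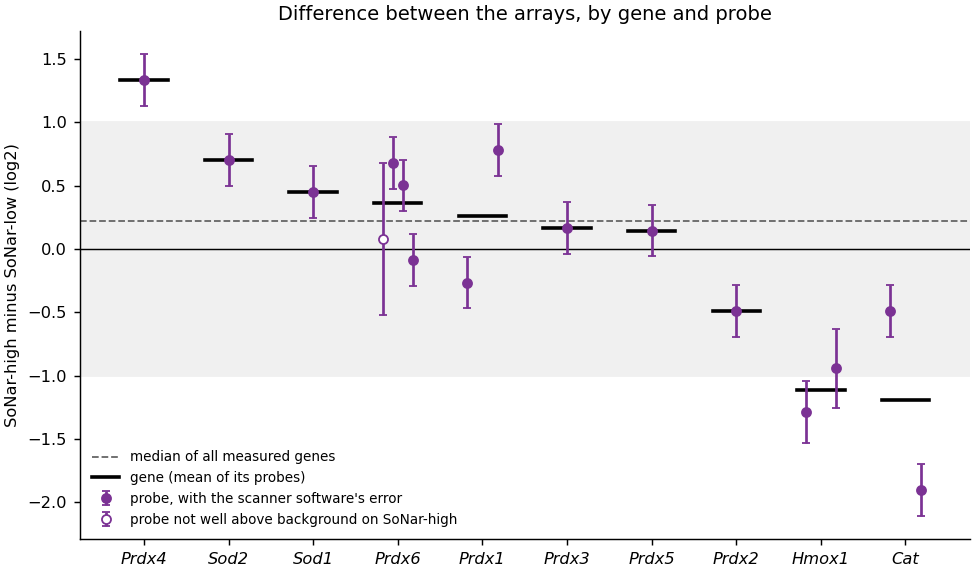
SoNar-high minus SoNar-low (log2) for each gene, highest first: bars are gene means, points are probes with the scanner software's error, the open point is the dim Prdx6 probe. The grey band is under 2-fold, the dashed line the median of all measured genes (0.22); Prdx4 lies above the band and the means of Hmox1 and Cat below it, while 1 probe of each of these last genes lies inside.

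In order of their differences the genes ran from Prdx4 (1.33) through Sod2, Sod1, Prdx6, Prdx1, Prdx3, Prdx5, Prdx2 and Hmox1 to Cat (-1.19). Between neighbours, 3 gaps were larger than the combined software error of the pair: Prdx4 to Sod2, Prdx5 to Prdx2 and Prdx2 to Hmox1, each of 0.63 against errors of 0.28 to 0.29. The other 6 gaps, of 0.02 to 0.25, were within it. This error covers spots only, and the spread between probes of Prdx1 (0.74) and Cat (1.00) was larger than any of these gaps. The first Cat probe, at -0.49, stood where Prdx2 did. The measured Prdx6 probes ran from -0.09 to 0.68 and those of Hmox1 from -1.29 to -0.94. The places of Prdx1, Prdx6, Hmox1 and Cat in this order thus depend on the probe. The other 6 genes had 1 probe each, so their places could not be checked in this way.

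Differences between members are free of the choice of array scale, since a common factor cancels. Prdx4 exceeded Prdx2 by 1.82, and by 1.68 to 1.84 over 11 other settings. It exceeded Cat by 2.53 (2.21 to 3.23) and Hmox1 by 2.45 (1.82 to 2.62 over 10 settings). Sod2 exceeded Sod1 by 0.25 (0.11 to 0.25), which is under the software error. Against the median gene of the same setting, Prdx4, Sod1 and Sod2 were above it in 11 of 11 other settings, and Prdx2 and Cat in 0 of 11. Hmox1 was above it in 0 of 10, since no Hmox1 probe was left under the stricter filter on dim probes. Prdx6 was above it in 8, Prdx1 in 5, and Prdx3 and Prdx5 in 1 of 11 each. Not all of these settings are separate checks. Median scaling, scaling on bright probes and centring on the median gene shift every gene alike, so they repeat the reported places by construction. With no filter, the stricter filter or the brightest probe, Prdx2 to Prdx5, Sod1 and Sod2 kept their values and only the median gene moved.

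**Figure D3:**
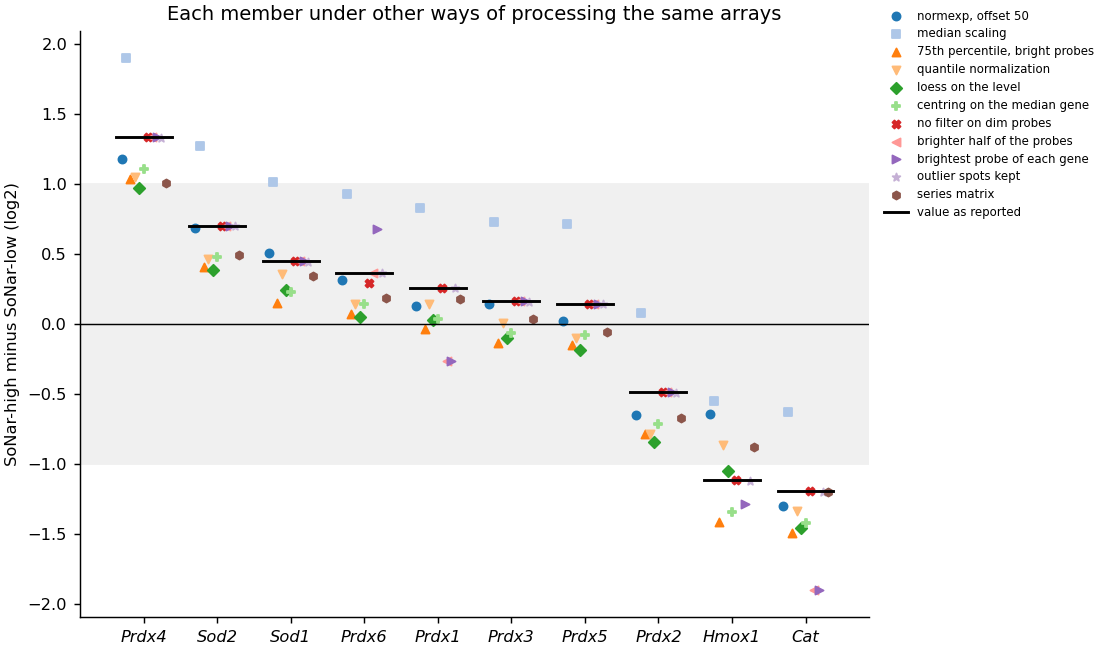
SoNar-high minus SoNar-low (log2) of each member as reported (bars) and under 11 other ways of processing the same arrays (symbols); the grey band is under 2-fold. Median scaling lifts every gene by the same amount; Hmox1 is under 2-fold in 4 settings, and Prdx4 and Cat in 1 each.

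The difference between the arrays also depended on how bright a gene was. A loess curve over the probes stood at -0.10 at the level of Hmox1, at 0.27 at that of Cat, at 0.36 at that of Prdx4 and at 0.21 at that of Sod1. Taken from this curve, Hmox1 lay at -1.05, Cat at -1.45, Prdx2 at -0.84, Sod2 at 0.38 and Sod1 at 0.24. Prdx6 (0.05), Prdx1 (0.03) and Prdx3 (-0.10) were then nearly on the curve.

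**Figure D4:**
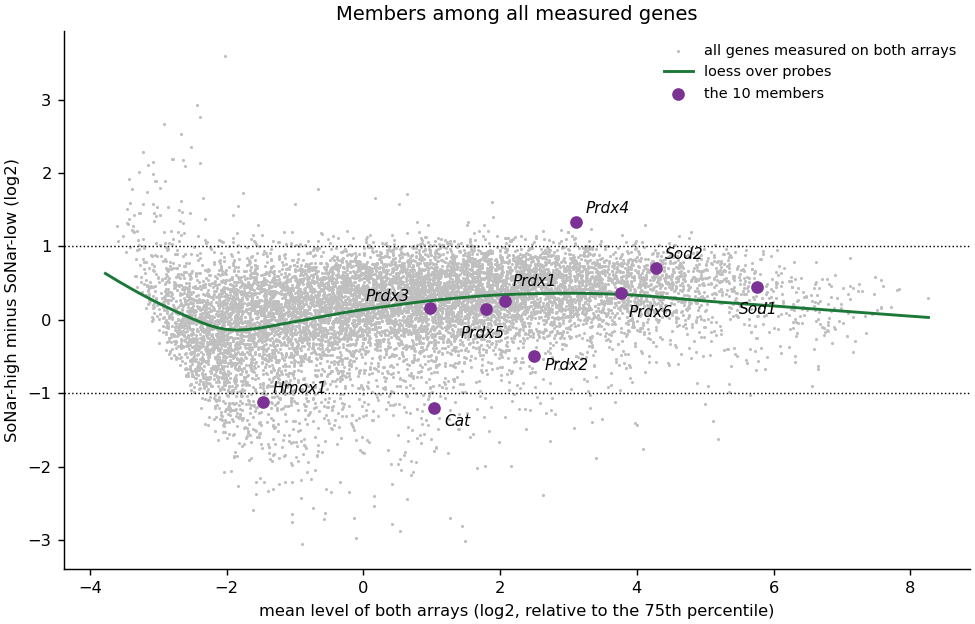
SoNar-high minus SoNar-low (log2) against the mean log2 level of both arrays for the 10515 measured genes (grey), with the 10 members named and the loess curve over probes in green; dotted lines mark 2-fold. Prdx4 lies above the curve, Cat, Prdx2 and Hmox1 below it, and Hmox1 is the dimmest of the 10.

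Several of these genes are known NRF2 targets, so their promoter windows were searched for the core of the antioxidant response element, TGACNNNGC, on both strands. RefSeq windows of GRCm38.p6, from 250 bases before to 50 after the gene start, were matched by symbol for 8 of the 10 genes; Hmox1 and Prdx6 were not among them. The core was in 2 of these 8 windows, Prdx1 and Sod1, and in 12.4% of 32851 windows of the same length. Both matches were on the reverse strand, with their first base at position -133 in Prdx1 and -56 in Sod1, counted from the gene start. The same core followed by an A was in 0 of the 8 and in 3.04% of all windows. The GC box GGGCGG, on either strand, was in 8 of the 8 windows and in 35.7% of all; the 8 windows held 57.0% to 68.7% G and C, against a median of 52.7% over all windows, so these shares are not of like sequence. The CCAAT box, on either strand, was in 4 of the 8, those of Cat, Prdx4, Sod1 and Sod2, and in 37.4% of all; both boxes were searched after the members' values were known. Shown first are the windows with the antioxidant core in capitals, chr4:116685349-116685648 on the plus strand for Prdx1 and chr16:90220512-90220811 on the plus strand for Sod1. Then follow the windows of the highest and the lowest member with GGGCGG and CCAAT in capitals (CCGCCC and ATTGG where reversed), chrX:155338411-155338710 on the minus strand for Prdx4 and chr2:103485104-103485403 on the minus strand for Cat.
Prdx1: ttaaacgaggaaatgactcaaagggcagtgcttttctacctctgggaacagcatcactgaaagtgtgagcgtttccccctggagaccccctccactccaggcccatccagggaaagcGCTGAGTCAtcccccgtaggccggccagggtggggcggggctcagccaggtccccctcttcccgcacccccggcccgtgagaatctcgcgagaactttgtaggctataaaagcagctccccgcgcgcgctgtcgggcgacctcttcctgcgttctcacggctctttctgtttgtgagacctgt
Sod1: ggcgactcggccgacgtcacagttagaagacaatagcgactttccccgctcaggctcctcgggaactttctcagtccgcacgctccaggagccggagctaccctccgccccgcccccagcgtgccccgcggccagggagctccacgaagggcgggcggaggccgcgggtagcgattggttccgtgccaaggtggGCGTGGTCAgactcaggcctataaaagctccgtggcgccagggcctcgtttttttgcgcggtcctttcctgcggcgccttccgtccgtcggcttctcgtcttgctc
Prdx4: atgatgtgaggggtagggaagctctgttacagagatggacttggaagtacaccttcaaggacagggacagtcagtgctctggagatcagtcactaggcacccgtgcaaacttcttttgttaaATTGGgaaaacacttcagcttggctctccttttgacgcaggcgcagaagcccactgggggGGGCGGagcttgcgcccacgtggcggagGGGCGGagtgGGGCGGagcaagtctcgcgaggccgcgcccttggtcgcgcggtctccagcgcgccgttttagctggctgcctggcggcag
Cat: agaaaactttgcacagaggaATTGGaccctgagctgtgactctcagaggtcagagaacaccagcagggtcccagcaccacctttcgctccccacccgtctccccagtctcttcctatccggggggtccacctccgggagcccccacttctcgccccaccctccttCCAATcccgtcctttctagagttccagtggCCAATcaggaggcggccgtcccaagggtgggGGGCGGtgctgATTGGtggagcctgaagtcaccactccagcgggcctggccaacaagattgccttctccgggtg
The genes with the antioxidant core lay at 0.26 and 0.45. Prdx4, with 3 GC boxes, and Cat, with 4 CCAAT boxes, have no such core in these windows. Neither box sets these genes apart: Prdx4 also has a CCAAT box and Cat a GC box. The Sod1 and Sod2 windows hold more GC boxes than that of Prdx4. A match describes letters only, and no match says only that they are not in this window.

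Genes that act with the members were taken from lists and are described by counts and medians, beside 6.79% of all genes past 2-fold and a median of 0.22. Of 13 partners of the peroxiredoxins 12 were measured, with a median of 0.28 and 7 above the median gene. Txnrd3, a thioredoxin and glutathione reductase, was at least 2-fold higher (1.09) and Sesn2, a stress-induced sestrin, at least 2-fold lower (-1.57). Sesn3 stood at 0.85 and Gstp1, the glutathione transferase that partners Prdx6, at -0.41. The thioredoxin genes Txn1 and Txn2, named for their role and not by rule, stood at 0.05 and 0.55. Srxn1, whose sulfiredoxin repairs overoxidised peroxiredoxins, had 50.7 units for SoNar-high against 26.0 for SoNar-low. Only its SoNar-low spot was flagged as well above background, so no fold is given. The flag is set spot by spot. A signal above the lowest one that passed (46.4 units for SoNar-high, 19.4 for SoNar-low) can still miss it, as the SoNar-high signal did here.

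Of 10 genes of glutathione peroxidases and glutathione supply 6 were measured, none past 2-fold (median 0.14). They ran from Gsr, glutathione reductase (0.57), and Gss (0.32) to Gpx1 (-0.02) and Gclm, the modifier subunit of glutamate-cysteine ligase (-0.92). The list of 8 genes meant as partners of superoxide dismutases gave 6 measured genes, none past 2-fold (median -0.09). The copper importer gene Slc31a1 (0.86) and the copper chaperone gene Ccs (0.07) were highest. Mtch2 (-0.64, with probes at -1.83 and 0.54) and Cyb5r3 (-0.73) were lowest, a mitochondrial insertase and a cytochrome b5 reductase that do not serve these enzymes directly. Sod3, the secreted dismutase, was at least 2.53-fold higher in the SoNar-low population. That is a bound, since its 10.7 units for SoNar-high were under the background limit, against 135.0 units for SoNar-low. Of 5451 genes seen for SoNar-low alone 5.04% had a bound of at least 2-fold, and of 11 genes seen for SoNar-high alone 100%. These shares are not alike. Relative to the 75th percentile, the lowest signal well above background was 0.113 for SoNar-high and 0.0413 for SoNar-low, more than 2-fold apart. The share of 100% thus follows largely from these limits.

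Genes whose products make superoxide or peroxide were mostly dim. Of 16 with a probe 6 were measured, none past 2-fold, with a median of 0.16. Cyba, a subunit of the phagocyte NADPH oxidase, stood at 0.40. Rac2, the GTPase that activates that oxidase, stood at -0.58. Ero1a, which makes peroxide in the endoplasmic reticulum where Prdx4 works, stood at -0.23.

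Around Hmox1, 11 of 13 genes of haem breakdown and iron were measured, with a median of -0.04 and 8 below the median gene. Slc48a1, which encodes a transporter that moves haem out of endolysosomes, was at least 2-fold lower, with 3974 units for SoNar-high against 12345 for SoNar-low (-1.43). Por, the reductase that feeds electrons to haem oxygenase, stood at -0.41, and the constitutive haem oxygenase gene Hmox2, named for its role and not by rule, at 0.11. Flvcr1, a haem exporter gene, stood at 0.40 and the ferritin gene Fth1 at 0.34. Of 9 haem synthesis genes 8 were measured, none past 2-fold (median 0.12), from Cpox (0.63) and Urod (0.51) to Alas1, the first enzyme of the pathway outside red cells (-0.59, with probes at -1.21 and 0.03).

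Of 23 genes of the peroxisome, where catalase resides, 22 were measured, with a median of 0.37 and 14 above the median gene. Pex14, a docking protein for import into peroxisomes, was at least 2-fold lower (-1.03), and Pex16 stood at -0.33. Phyh, which starts the breakdown of branched fatty acids, stood at 0.94 and the thiolase gene Acaa1a at 0.85.

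Of 16 regulators of antioxidant genes 12 were measured, none past 2-fold, with a median of 0.42 and 9 above the median gene. Bach2, a B-lineage repressor that binds antioxidant elements, stood at 0.92 and Foxo1 at 0.68, with Nfkb1 (-0.20) and Nfe2l1 (-0.35) lowest. Nfe2l2, which encodes NRF2, stood at 0.65 and Keap1, its inhibitor, at 0.24; both are named for their role. Of 20 other NRF2 target genes 13 were measured, none past 2-fold, with a median of 0.19. They ran from Taldo1 (0.66) and Fth1 (0.34) to Gstm1 (-0.43) and Gclm (-0.92). Nqo1, a standard readout of NRF2 and named for that, was under the background limit on both arrays.

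**Figure D5:**
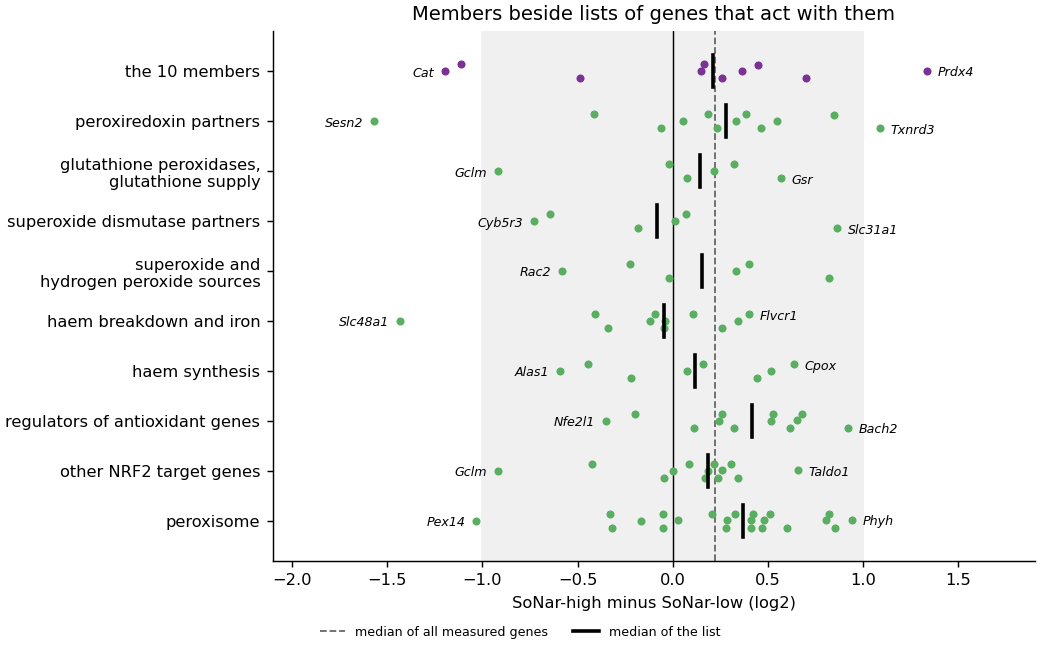
SoNar-high minus SoNar-low (log2) of each measured gene in the 9 lists of partner genes and of the 10 members (purple, top); black bars are list medians, the dashed line is the median of all measured genes (0.22), the grey band is under 2-fold, and the lowest and highest gene of most lists are named. List medians lie between -0.09 and 0.42, and of the partner genes Txnrd3 lies above the band and Sesn2, Slc48a1 and Pex14 below it.

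The other marker lists had these medians. Neutrophil markers (12 of 15 measured) stood at -0.40, from Prtn3 (0.37) to Ngp (-1.24), T and NK markers (6 of 12) at -1.04, from Cd2 (0.68) to Cd4 (-1.66), and stroma and endothelium markers (4 of 10) at -0.80, from Pecam1 (-0.26) to Kdr (-1.48). Lung markers (4 of 12) stood at -0.14, from Lamp3 (0.44) to Sftpd (-1.87), but 7 more were seen for SoNar-low alone, 5 of them with bounds of at least 2.02-fold to at least 9.90-fold lower in SoNar-high. These lung markers and the medians of the neutrophil, T and NK and stroma lists run the same way as Sod3, Cat and Hmox1. The part of these cell types in those values was not tested. Brain markers (10 of 17) stood at 1.45, from Rtn1 (2.93) to Snap25 (-1.04). Of the 10, 6 were at least 2-fold higher and 1 lower, against 2.41% and 4.38% of all measured genes. B-lineage markers (9 of 10) stood at 0.42, from Ebf1 (0.98) to Ptprc (-0.22). The brain and B-lineage medians both run the same way as Prdx4, Sod1 and Sod2. So do most genes, with 66.9% of all measured genes above 0. The part of either cell type in the values of Prdx4, Sod1 and Sod2 was not tested. Of 7 platelet markers 0 passed the background limit for SoNar-high and 4 for SoNar-low.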

How the data were processed

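Total RNA of 1 SoNar-high and 1 SoNar-low sample was measured on 1 array each. Per the file headers, the authors' scanner files give a background-subtracted, detrended 1-colour intensity per spot from Agilent Feature Extraction 11.0.1.1, not scaled between arrays; the submitters' processing notes name version 9.1. The authors' deposited series matrix is on a log2 scale, with sorted columns that differ by at most 0.035 and a median of 5.90 on both arrays; its columns ranked probes as the scanner files did (Spearman's rho 1.000 and 0.9998) and its differences ran the same way (r = 0.85 over probes). Its centring is not given, and it served as an alternative.

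Control spots and spots flagged as non-uniform (1 and 350) or as population outliers (189 and 156) were left out, and 0 spots were saturated. Spots of a probe were averaged as log2 values over 39085 probes, and a probe counted as well above background where over 50% of its spots did. RefSeq accessions, without versions, named 27109 probes through a gene table of GRCm38.p6; the array design is on mm9, so no gene coordinates are given. A gene's value averages those of its probes that passed this limit for both populations. A gene seen on 1 array only got a bound against the other array's lowest signal well above background. Where a probe's own signal on that other array was higher, that signal was used instead. Among 193 probes printed as 10 spots, a difference between single spots had a median SD of 0.15; this stood in for replicate spread when settings were compared. Arrays give no counts, and their number limits the precision.

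The members and lists were chosen with earlier results of these data known. By rule, all members, the 2 highest and 2 lowest genes of each partner list, genes past 2-fold and the highest and lowest marker of each list are named. The settings tried were normexp (offset 50, on median spot signals), 4 scalings (median, 75th percentile of bright probes, quantile, loess with span 0.3), centring on the median gene, no filter or a stricter one on dim probes, the brightest probe, outlier spots kept, the series matrix, and thresholds of 1.5-fold and 3-fold. A planned comparison of protein sequences was not made. Some genes that the rule covers are not reported here. On simulated data of 10515 genes for this comparison, 100 of 100 genes raised and 100 of 100 lowered 3-fold were called, with 0 of 10315 unchanged genes. The simulated error was that between spots, with no disagreement between probes of a gene and no trend over level. The called members lay at 2.17-fold to 2.52-fold, so the simulation checks the calculation and not their calls. Analyses used Python 3.11.15, numpy 2.4.6, pandas 2.3.3, scipy 1.17.1, statsmodels 0.14.6, matplotlib 3.10.9, R 4.3.3 and limma 3.58.1.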

Additional observations from a re-analysis of the deposited data

How the results depend on the processing

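Medians below are relative to the median gene of the same setting. Of the 10 members, 1 was at least 2-fold higher and 2 lower as reported. Median scaling gave 3 higher (Prdx4, Sod1 and Sod2) and 0 lower, and loess on the level 0 higher. Normexp, quantile normalization and the series matrix each gave 1 lower. The brighter 50% of probes also gave 1 lower, but of 9 members, since Hmox1 was not measured there. At 1.5-fold 2 were higher, and at 3-fold 0 were higher and 0 lower. The member median of -0.01 became 0.16 with no filter on dim probes and -0.22 with the brighter 50% of probes. Before the median gene was taken off, it was 0.21 both as reported and with no filter. The relative member median stayed within 0.15 of -0.01 with any 1 member left out and under the other settings. Median scaling, scaling on bright probes and centring on the median gene leave this median and the list medians unchanged by construction.

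Over all genes, 253 were higher and 461 lower (35.4% of those past 2-fold higher). Normexp gave 72 and 240 (23.1% higher), median scaling 3380 and 139 (96.05%), the 75th percentile of bright probes 61 and 851 (6.69%), centring on the median gene 70 and 741 (8.63%), no filter 1885 and 2542 of 20614 genes (42.6%), and the brighter 50% 141 and 111 of 5728 (56.0%). Loess gave 118 higher (18.2%), the series matrix 430 higher (54.6%), quantile normalization a share of 47.1%, 1.5-fold 2145 and 1068, and 3-fold 31 and 132.

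The median of the regulators, 0.19 as reported, changed sign under quantile normalization (-0.058), the brighter 50% (-0.031) and the series matrix (-0.043) and was 0.011 under loess. That of the other NRF2 targets (-0.04) was -0.25 with quantile normalization, -0.21 in the series matrix and 0.13 with no filter. Quantile normalization put glutathione genes at -0.26, dismutase partners at -0.50 and haem synthesis at -0.27. The brighter 50% put peroxide sources at -0.33, haem breakdown at -0.63 and haem synthesis at -0.31, and no filter put peroxiredoxin partners at 0.28. The median gene, which these values are relative to, moved as well. It stood at 0.22 as reported, at 0.05 with no filter and at 0.39 with the brighter 50%. What else lay behind these shifts was not tested. No paired analysis was possible because each population had 1 array, and for the same reason no array could be left out. Dim probes, those of Hmox1 above all, limit what these arrays show.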
